A study of Mus musculus with 6 samples.

Results

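The Six-, Eya- and Mef2-family factors described here are 8 genes for transcription regulators of the muscle programme: Six4, Six5, Eya1, Eya3, Eya4, Mef2a, Mef2c and Mef2d. They were taken by exact symbol from a table of 43283 gene identifiers, and all 8 were found. They were measured by RNA sequencing in mouse muscle stem cells, in 3 Vehicle libraries (24 h in culture with DMSO, the solvent) and 3 PGE2 libraries (24 h with prostaglandin E2, a lipid mediator released in injured tissue). Both groups came from C57BL/6 females, given as 8 to 12 weeks old in the growth protocol and as 2 to 4 months in the design text, with no transgene named. Cells of both groups were sorted from hindlimb muscle by α7-integrin and CD34, with CD45, Sca1, CD31 and CD11b as negative gates, and grown in a serum-rich medium. RNA came from 5000 to 10000 cells. The design text speaks of biological triplicates without naming animals, sorts or cultures. Each p-value below thus sets a group difference against the spread between these libraries, part of which may be technical. For each gene that spread is drawn toward the trend over all tested genes.

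SIX-family proteins are homeodomain factors that bind MEF3 sites in muscle genes and act with EYA proteins, cofactors that also carry phosphatase activity. Together they stand upstream of Pax3 and the myogenic bHLH factors in the embryo and are active in adult muscle stem cells. MEF2 proteins are MADS-box factors that act with the myogenic bHLH factors on late muscle genes. Class IIa histone deacetylases bind and silence MEF2, and calcium signalling relieves that repression, while p38 acts on MEF2 proteins themselves.

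Mef2a was the most abundant of the 8 in both groups, Six4, Mef2d, Eya1 and Eya3 lay in a middle range, Eya4 and Mef2c were low, and Six5 was close to 0. With PGE2, Mef2d and Mef2c had higher fitted values and Six4, Eya1, Eya3, Eya4 and Mef2a lower ones. None of these differences passed the test. Within the Mef2 family, the shares held by Mef2a and Mef2d did not overlap between the groups. Mef2a held 80.1 ± 1.80% of the summed Mef2 TPM with Vehicle and 66.2 ± 1.67% in PGE2 (mean ± SD, n = 3 each), a description for which no test was made. Relative to 22.4% of 10368 other tested genes, too, Mef2d was higher in every PGE2 library, so such a pattern was common. TPM, a normalized transcript abundance, corrects for gene length within a library, so that levels of different genes can be set side by side.

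Sequence around the starts of these genes is shown first, because 2 of the 8 carry the binding letters of their own families there. RefSeq promoter windows (GRCm38.p6, 250 bases before a start and 50 from the start on) matched 7 of the 8 members, with 11 windows in all. Eya1 had no entry. Each line below reads 5′ to 3′ on the strand of its gene, with the matching letters in capitals.
Six4, chr12:73113326-73113354, minus strand: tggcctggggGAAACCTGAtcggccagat
Mef2a, chr7:67372851-67372950, minus strand: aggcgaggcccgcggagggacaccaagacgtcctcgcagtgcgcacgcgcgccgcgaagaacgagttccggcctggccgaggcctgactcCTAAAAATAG

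The capitals in Six4 are the MEF3 site, TCAGGTTTC, read on the other strand, at bases -99 to -91 from 1 of the gene's 2 RefSeq starts. In GENCODE M21 this stretch lies inside the Six4 gene, which spans 73099609 to 73113456. TCAGGTTTC on either strand is found in 0.429% of all 32851 windows, and in no other window of a member. The capitals in Mef2a match the MEF2 consensus and straddle the RefSeq start, from base -2 to base +8. The MEF2 consensus occurs in 3.19% of all windows and in no other window of a member. The cAMP response element, searched because PGE2 receptors can raise cAMP, was absent from all 11 windows both as the full TGACGTCA (1.79% of all windows) and as the half-site TGACG on either strand, which every full element also holds (20.8% of all windows). A match shows only that the letters are present, and a missing match only that they are not in these windows.

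Gene levels were compared with limma on log2(TPM + 1), over the 12781 genes that reached 1 TPM in 3 or more libraries, with Benjamini-Hochberg adjustment over all of them. Of the 8 members 7 passed this filter and Six5 did not. By limma with Benjamini-Hochberg adjustment 0 of the 7 were called, as were 0 of all 12781 genes (0%). At an unadjusted p under 0.05 there were also 0 of 7, beside 1.57% of all tested genes higher and 2.06% lower with PGE2. No member had all PGE2 libraries above or all below the Vehicle libraries, a pattern that 3.18% of tested genes showed upward and 4.84% downward. The median log2 change of the 7 members, PGE2 minus Vehicle, was -0.41, beside -0.07 over all tested genes. Of all tested genes 5614 had a higher and 7167 a lower fitted value.

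Of the myogenic markers 8 of 8 passed the filter, with a summed level of 706 to 899 TPM with Vehicle and 626 to 883 TPM with PGE2. The largest parts of that sum were Sdc4, Myf5 and Myod1 (means over all libraries 274, 241 and 112 TPM). Itga7, the gene of the sorted α7-integrin, read 2.69 to 13.2 TPM, Cd34 12.4 to 26.2 TPM and Cdh15 0 to 5.15 TPM. Between 15400 and 19677 genes were listed above 0 per library, and mitochondrial genes held 20.9% to 33.6% of the TPM. Since RNA was taken in bulk, fewer cells of a type and less RNA per cell cannot be told apart.

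**Figure D1:**
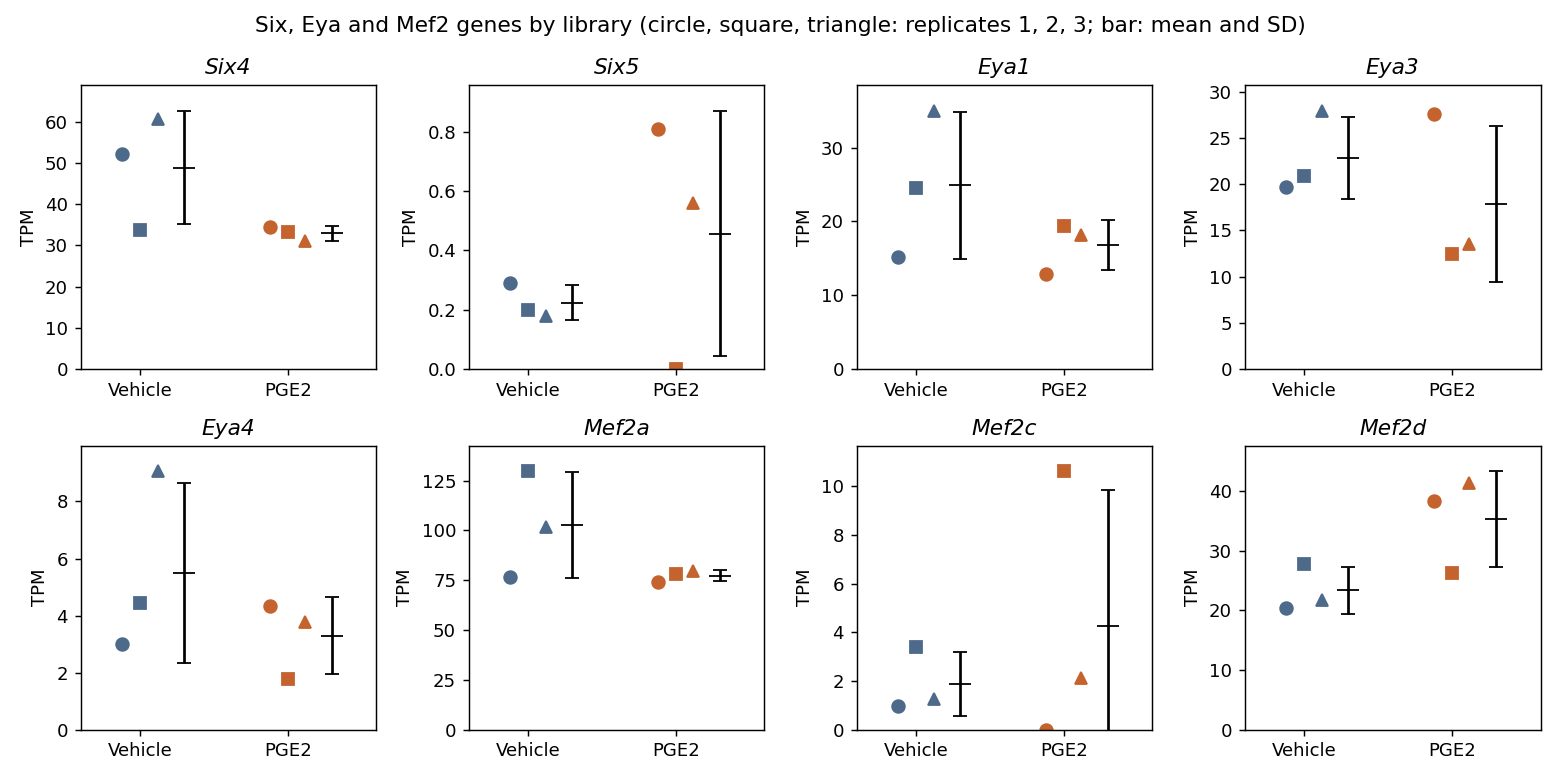
TPM of the 8 genes in each library (vertical axes from 0, one scale per gene; circle, square and triangle for replicates 1, 2 and 3), with the mean and SD of each group beside the points. The PGE2 libraries sit close together for Six4 (31.0 to 34.6 TPM) and Mef2a (74.1 to 79.7 TPM), while Mef2c runs from 0 to 10.6 TPM there and the lower end of its SD bar falls below the axis.

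Six4 (ENSMUSG00000034460, mm10 chromosome 12, 73099609 to 73113456, minus strand) encodes a SIX-family homeodomain factor. It read 52.1, 33.8 and 60.8 TPM with Vehicle 1 to 3 and 34.6, 33.3 and 31.0 TPM with PGE2 1 to 3. The PGE2 values were all within 4 TPM of each other, and Vehicle 2 lay among them while Vehicle 1 and 3 were higher. Its log2 change was -0.52 (95% confidence interval -1.26 to 0.23, limma Benjamini-Hochberg adjusted p = 1.00), so a fold from 0.417 to 1.17 was within the interval. Without Vehicle 2 the change was -0.76 and without Vehicle 3 it was -0.34.

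Six5 (ENSMUSG00000040841, chromosome 7, 19094594 to 19098549, plus strand) is the SIX-family gene at the myotonic dystrophy locus. It read 0.29, 0.20 and 0.18 TPM with Vehicle and 0.81, 0 and 0.56 TPM with PGE2, too low to test. Dmpk, the kinase gene that ends 772 bases before Six5 starts, was named after its values were seen. It read 64.0, 59.7 and 57.5 TPM with Vehicle and 74.9, 51.7 and 76.5 TPM with PGE2. The neighbours thus stood far apart in level in every library.

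Of SIX-family genes outside the 8, Six2, a kidney and skeletal development factor, passed the filter. Six2 read 8.39, 5.07 and 2.52 TPM with Vehicle and 5.29, 6.34 and 8.32 TPM with PGE2, with overlapping groups. Six3 and Six6, eye and forebrain factors, stayed at or below 1.61 and 1.19 TPM.

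The Eya genes encode the cofactors of SIX-family proteins, and 3 of the 4 were above the filter. Eya1 (ENSMUSG00000025932, chromosome 1, 14168954 to 14310235, minus strand) read 15.1, 24.5 and 35.0 TPM with Vehicle and 12.9, 19.4 and 18.1 TPM with PGE2. Vehicle 2 and 3 were above every PGE2 library, and Vehicle 1 was in their midst. The log2 change of Eya1 was -0.48 (95% confidence interval -1.41 to 0.44), and -0.21 without Vehicle 3. Eya3 (ENSMUSG00000028886, chromosome 4, 132638987 to 132724765, plus strand) read 19.7, 20.8 and 28.0 TPM with Vehicle and 27.6, 12.5 and 13.6 TPM with PGE2. Here PGE2 1 matched the highest Vehicle library, and PGE2 2 and 3 lay below all of them. The log2 change of Eya3 was -0.41 (-1.33 to 0.52), and -0.75 when PGE2 1 was left out.

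Eya4 (ENSMUSG00000010461, chromosome 10, 23102963 to 23350786, minus strand) was lower, at 3.01, 4.43 and 9.05 TPM with Vehicle and 4.34, 1.76 and 3.78 TPM with PGE2. Vehicle 3 stood above the other 5 libraries, which overlapped. The log2 change of Eya4 was -0.55 (95% confidence interval -1.84 to 0.75), and -0.18 without Vehicle 3. Eya2, the family member outside the 8, was untested at 0.18 to 2.02 TPM. Eya1 and Eya3 together made up most Eya transcripts. Eya1 held 45.1 ± 4.69% of the summed Eya TPM with Vehicle and 44.9 ± 15.4% in PGE2, and Eya3 43.6 ± 7.23% and 44.4 ± 12.6% (mean ± SD, n = 3 each). The largest departure was PGE2 1, where Eya3 held 59.0% and Eya1 27.5%.

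Vehicle 3 had the highest reading of the Vehicle group for Six4, Eya1, Eya3 and Eya4. The same library had the largest mitochondrial share of the 6 (33.6%) and the fewest genes above 0 in its group (16446). PGE2 3 came next in mitochondrial share (30.4%), and PGE2 1 had fewer genes above 0 (15400). Whether these library traits move the Six4 and Eya values was not tested. With mitochondrial genes left out and the rest rescaled, all 7 tested members kept the sign of their change.

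The Mef2 genes encode the MADS-box factors, and Mef2a (ENSMUSG00000030557, chromosome 7, 67231163 to 67372858, minus strand) led them. It read 76.5, 129.6 and 102 TPM with Vehicle and 74.1, 78.3 and 79.7 TPM with PGE2. Vehicle 1 lay within the narrow PGE2 range, and Vehicle 2 and 3 were above it. The log2 change of Mef2a was -0.37 (95% confidence interval -1.04 to 0.30), and -0.19 without Vehicle 2. Exons of Lysmd4, a gene on the other strand, cover 302 exon bases of Mef2a, and Lysmd4 stayed at or below 0.53 TPM.

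Mef2d (ENSMUSG00000001419, chromosome 3, 88142372 to 88172086, plus strand), the broadly expressed family member with a muscle splice form, read 20.5, 27.8 and 21.8 TPM with Vehicle and 38.2, 26.3 and 41.4 TPM with PGE2. PGE2 1 and 3 were above all Vehicle libraries, while PGE2 2 lay just under Vehicle 2. The log2 change of Mef2d was 0.56 (95% confidence interval -0.21 to 1.34), a fold from 0.865 to 2.52. It was 0.76 without PGE2 2. The antisense gene 1700113A16Rik shares 531 exon bases with Mef2d; it was listed at 0 in the Vehicle libraries and in PGE2 1, and read 4.17 and 3.37 TPM in PGE2 2 and 3. No source used here says that strand was kept in the counting, and the part of antisense reads in the Mef2d values was not tested. Mef2d and the antisense gene read 38.2 and 0 TPM in PGE2 1, 26.3 and 4.17 TPM in PGE2 2, and 41.4 and 3.37 TPM in PGE2 3.

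Mef2c (ENSMUSG00000005583, chromosome 13, 83504034 to 83667080, plus strand), whose product drives muscle, heart, vessel and B cell genes, was the least steady of the tested members. It read 0.97, 3.39 and 1.25 TPM with Vehicle, was listed at 0 in PGE2 1, and read 10.6 and 2.14 TPM in PGE2 2 and 3. PGE2 thus held both extremes. The 0 fell in PGE2 1, the library with the fewest genes above 0 of the 6 (15400). Whether it is a missed detection was not tested. The residual SD of Mef2c was higher than that of 92.9% of tested genes. The fitted log2 change of Mef2c, 0.30 (95% confidence interval -1.60 to 2.20), turned to -0.60 without PGE2 2 and was 1.17 without PGE2 1. It also turned, to -0.36, with a pseudocount of 0.1. Mef2b, the remaining family member, was listed at 0 in all 6 libraries.

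PGE2 2, the library with the highest Mef2c, also had the highest summed level of the 5 endothelial markers (9.15 TPM, against 3.31 to 7.27 TPM with Vehicle and 4.66 and 6.21 TPM in the other PGE2 libraries). Of these markers 3 of 5 passed the filter. In PGE2 2, Eng read 6.44 TPM and Kdr 1.57 TPM, each its highest of the 6 libraries, Pecam1 read 1.14 TPM, and Cdh5 and Tek were listed at 0. The 4 fibro-adipogenic markers summed to 18.0 to 31.5 TPM with Vehicle, 24.9 and 37.3 TPM in PGE2 3 and 1, and 45.5 TPM in PGE2 2. Of them 2 of 4 passed the filter, and in PGE2 2 Col3a1 read 30.4 TPM (36.5 TPM in PGE2 1), Ly6a, which encodes Sca1, 13.6 TPM, Dcn 1.37 TPM and Pdgfra 0.18 TPM. The 6 leukocyte markers, 3 of them tested, summed to 2.66 to 10.9 TPM with Vehicle and 8.25, 7.38 and 9.78 TPM with PGE2 1 to 3. In PGE2 2, Ptprc read 3.47 TPM and Cd68 2.20 TPM, and Laptm5, Itgam and Cd3e were listed at 0. The B cell marker Cd79a read 1.71 TPM there and at most 0.31 TPM elsewhere. The 4 glial markers summed to 3.54 TPM in PGE2 2 and were highest in PGE2 3 (9.5 TPM). The 5 pericyte and smooth muscle markers summed to 11.79 TPM in PGE2 2 and were highest in Vehicle 2 (15.35 TPM). The part of other cells in the Mef2c value was not tested.

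The Mef2 family total overlapped between the groups, while the shares of Mef2a and Mef2d in it did not. The summed Mef2 TPM was 97.9, 161 and 125 in Vehicle and 112, 115 and 123 in PGE2. Mef2a held 78.1%, 80.6% and 81.6% of it under Vehicle and 66.0%, 68.0% and 64.7% under PGE2. Mef2d held 20.9%, 17.3% and 17.4% in Vehicle and 34.0%, 22.8% and 33.6% in PGE2. All PGE2 libraries thus had a smaller Mef2a share and a larger Mef2d share than any Vehicle library. The shares of Mef2a and Mef2d add up to nearly all of the total, so these are not separate observations, and they stand beside the 22.4% of other genes relative to which Mef2d was higher in every PGE2 library. Mef2c made up 0.991% to 2.11% in Vehicle and 0% to 9.20% in PGE2. A share within a family does not depend on how libraries are scaled to each other.

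**Figure D2:**
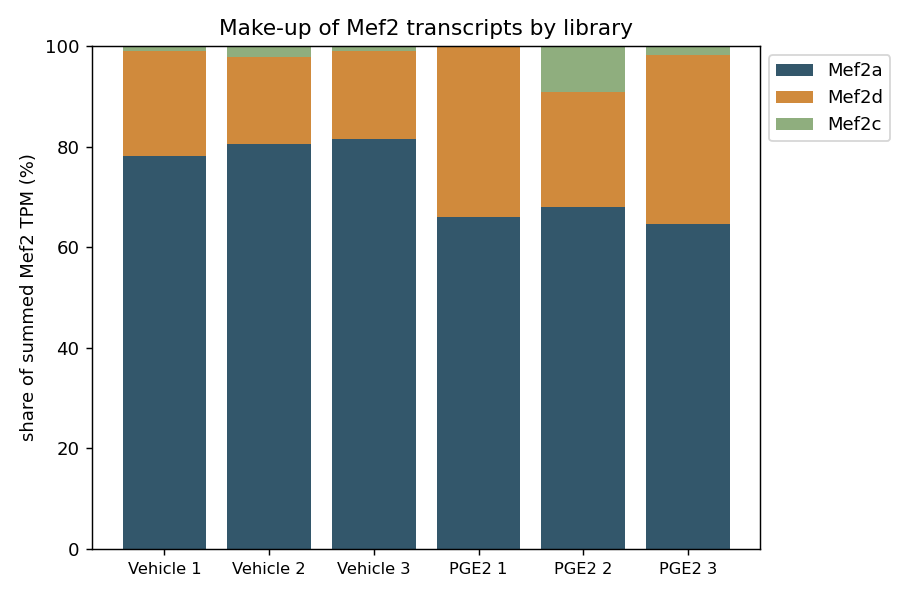
Share of the summed Mef2 TPM (vertical axis, percent) held by Mef2a, Mef2d and Mef2c in each of the 6 libraries; Mef2b was listed at 0. The Mef2a part is 78.1% to 81.6% in Vehicle and 64.7% to 68.0% in PGE2, and the upper parts show that PGE2 2 differs from PGE2 1 and 3 in its larger Mef2c and smaller Mef2d share.

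The ratio of Mef2d to Mef2a TPM was 0.268, 0.214 and 0.213 in Vehicle and 0.516, 0.336 and 0.520 in PGE2. Mef2c and Six5 each have a library at 0 and were left out of the ratios between members. Of the 15 ratios among Six4, Eya1, Eya3, Eya4, Mef2a and Mef2d, 4 had groups that did not overlap, and all 4 involved Mef2d. Mef2d was higher in every PGE2 library relative to Mef2a, Eya1, Eya3 and Eya4, and overlapped relative to Six4. The 10368 genes behind the 22.4% are the other tested genes above 0 in all 6 libraries. That share holds for ratios with Mef2d only, and none was computed for ratios between other genes.

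The order of the levels, by group mean, was Mef2a, Six4, Eya1, Mef2d, Eya3, Eya4, Mef2c and Six5 in Vehicle. Mef2a lay above Six4 in every Vehicle library, at 102.7 ± 26.6 against 48.9 ± 13.8 TPM (mean ± SD, n = 3 each). The ranges of Six4, Eya1, Mef2d and Eya3 overlapped from each to the next, as did those of Eya4 and Mef2c. In PGE2 the order was Mef2a, Mef2d, Six4, Eya3, Eya1, Mef2c, Eya4 and Six5. Mef2a was at 77.4 ± 2.88, Mef2d at 35.3 ± 7.97 and Six4 at 33.0 ± 1.82 TPM (mean ± SD, n = 3 each). Mef2d overlapped Six4 there, Eya3 overlapped Eya1, and Mef2c overlapped Eya4, while the other neighbours were apart. Among all tested genes, Mef2a stood at the 90.1 percentile of mean TPM, Six4 at 80.2, Mef2d at 74.2, Eya1 at 67.3, Eya3 at 66.9, Eya4 at 31.8 and Mef2c at 23.3.

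The members also differed in how far replicates spread. For Six4 the SD of log2(TPM + 1) was 0.43 in Vehicle and 0.08 in PGE2, and for Mef2a 0.38 and 0.05. Over all tested genes the median SD went the other way, from 0.43 in Vehicle to 0.66 in PGE2, and 30.5% of genes had the smaller SD in PGE2. Eya1 (0.58 and 0.30) and Eya4 (0.68 and 0.51) were also tighter in PGE2, and Eya3 (0.26 and 0.60), Mef2d (0.22 and 0.34) and Mef2c (0.62 and 1.77) were wider. An SD from 3 libraries is itself imprecise, and these differences were not tested.

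**Figure D3:**
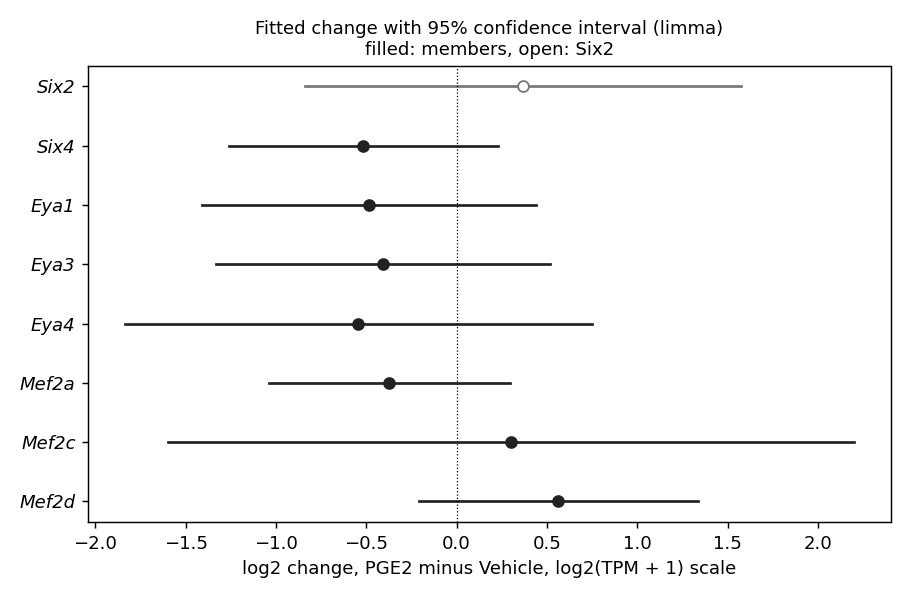
Fitted change in log2(TPM + 1), PGE2 minus Vehicle (horizontal axis), with its 95% confidence interval from limma, for the 7 tested members (filled) and for Six2 (open). All 8 intervals hold 0; the narrowest of a member is that of Mef2a (-1.04 to 0.30) and the widest that of Mef2c (-1.60 to 2.20).

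**Figure D4:**
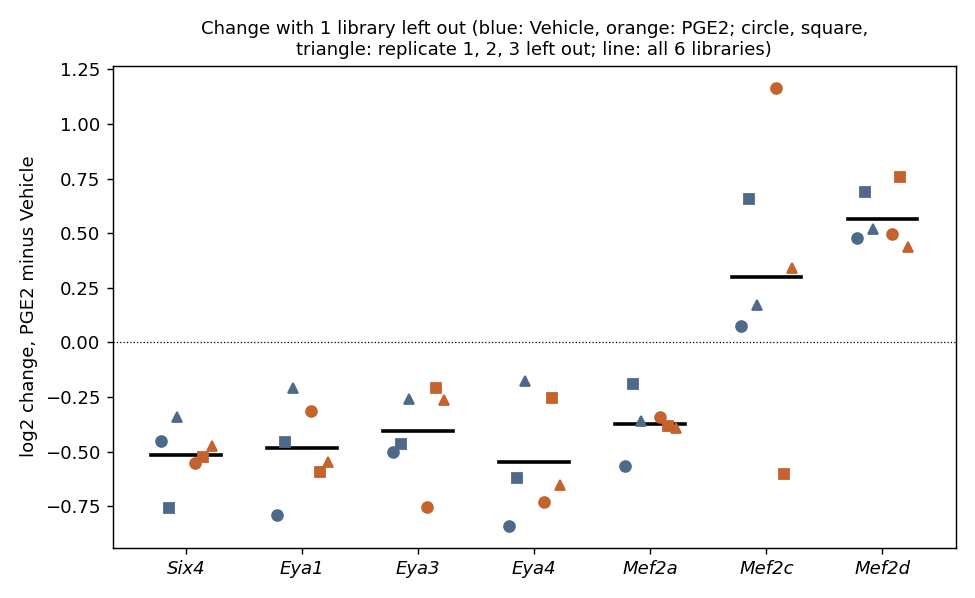
Log2 change of each tested member (vertical axis, PGE2 minus Vehicle) with 1 library left out: blue for a Vehicle and orange for a PGE2 library, with circle, square and triangle for replicates 1, 2 and 3, and a line for all 6 libraries. Mef2c spans -0.60 to 1.17 and crosses 0, Mef2d stays between 0.44 and 0.76, and Six4, Eya1, Eya3, Eya4 and Mef2a stay below 0.

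The genes that share their profile over the 6 libraries most closely with a member were found among 7394 protein-coding genes of 5 TPM or more. Likeness was the largest difference between the mean-centred log2(TPM + 1) profiles in any library. Nearest to Mef2d was Yipf5, a Golgi membrane protein gene, at no more than 0.09, with 19.8, 26.3 and 19.9 TPM with Vehicle and 33.5, 25.1 and 38.2 TPM with PGE2. Next came Mrpl39, of the mitochondrial ribosome, at 0.15. Eya3 was nearest to Zdhhc3, a palmitoyltransferase gene (0.09), and the mismatch repair gene Msh3 (0.13). Mef2a was nearest to the phosphate transporter gene Slc20a2 (0.14) and the transcription factor gene Nfia (0.15). Six4 was nearest to Gins2, of the replicative helicase (0.20), and the growth factor signalling inhibitor Spry4 (0.21). Eya1 was nearest to Akr1e1 and Ints9 (0.20 and 0.21). With 6 points per profile and 7394 candidates, close matches arise easily, and these are descriptions only.

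Of the partners of these factors, Sobp passed the filter and the DACH corepressors did not. Sobp, a nuclear SIX-family cofactor, read 2.10, 1.98 and 1.57 TPM with Vehicle and 4.54, 11.3 and 2.57 TPM with PGE2. Every PGE2 library of Sobp was higher, as for 3.18% of all tested genes. Its log2 change was 1.12 (95% confidence interval -0.22 to 2.46), and 0.63 without PGE2 2. Dach1 and Dach2, the corepressors, stayed at or below 1.18 and 0.90 TPM.

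Genes that act on or under these factors were counted in 3 lists, and in none was a gene called by limma (Benjamini-Hochberg adjusted p = 1.00 for the smallest of each list). At an unadjusted p under 0.05 there was 1 gene over the 3 lists, Xirp1. Of a list of 26 genes, the regulators of MEF2 and the family member Mef2b, 21 were tested, 3 higher and 18 lower, with a median log2 change of -0.23 beside -0.07 over all tested genes. That list median was -0.49 without PGE2 1, -0.15 without PGE2 2 and -0.07 without PGE2 3. Map2k3, a kinase that activates p38, was lower in every PGE2 library, at 61.7, 62.3 and 69.0 TPM with Vehicle and 61.3, 45.0 and 38.9 TPM with PGE2. The gap between PGE2 1 and Vehicle 1 was small, and Map2k3 was the 1 of 21 without overlap, beside 4.84% of all tested genes lower in this way. Hdac7, a class IIa histone deacetylase, read 62.1, 52.6 and 18.9 TPM with Vehicle and 29.7, 48.0 and 10.3 TPM with PGE2. The TEAD cofactor gene Vgll2 read 32.9, 40.9 and 32.7 TPM with Vehicle and 17.2, 35.2 and 30.3 TPM with PGE2. Camk2d, a calcium-dependent kinase gene, read 48.8, 34.2 and 59.8 TPM with Vehicle and 37.7, 12.6 and 60.4 TPM with PGE2. These 3 overlapped between the groups. PGE2 1 stood apart for several others, named here after their values were seen. Carm1, an arginine methyltransferase coactivator, read 48.0 TPM there and 12.1 to 24.9 TPM elsewhere. The acetyltransferase gene Ep300 read 41.7 TPM there and 18.1 to 26.0 TPM elsewhere. Mapk14, which encodes p38α, read 40.5 TPM there and 21.3 to 28.0 TPM elsewhere. This is also the PGE2 library in which Eya3 was high. Hdac9, another class IIa enzyme, was near 0 (at most 0.13 TPM).

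Of 11 genes described as SIX-family targets, 9 were tested, 3 higher and 6 lower, with a median log2 change of -0.05 that did not keep its sign. It was -0.24 without PGE2 1, 0.02 without PGE2 2, 0.04 without PGE2 3 and 0.05 without Vehicle 3. Untested were Myog, at 0.91, 3.52 and 1.45 TPM with Vehicle and 0 in every PGE2 library, and Myf6, at most 1 TPM. Pax3, a paired-box factor of muscle progenitors, read 5.70, 8.23 and 2.37 TPM with Vehicle and 0.93, 2.72 and 0.70 TPM with PGE2. Vehicle 3 lay between PGE2 readings, and the log2 change of Pax3 was -1.36 (95% confidence interval -2.74 to 0.01). Myf5, the early bHLH factor of myoblasts, read 251, 285 and 303 TPM with Vehicle and 120, 185 and 301 TPM with PGE2, with PGE2 3 at the Vehicle level. Igfbp5, an IGF binding protein gene linked to SIX5, was the 1 gene of this list with all PGE2 libraries higher (3.18% of all tested genes). It read 11.0, 10.9 and 8.50 TPM with Vehicle and 30.2, 11.8 and 12.4 TPM with PGE2, so that the difference rested mostly on PGE2 1 (log2 change 0.66, and 0.24 without it). Lbx1, a homeobox factor of migrating progenitors, read 5.87, 3.54 and 2.78 TPM with Vehicle and 1.98, 3.92 and 2.96 TPM with PGE2.

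Of 24 genes described as MEF2 targets, 11 were tested, 6 higher and 5 lower, with a median log2 change of 0.07, whose sign was not held. It was -0.31 over the genes that a filter of 5 TPM kept, -0.06 with no filter, -0.04 with median-ratio scaling and -0.02 with library weights. With 1 library left out it ran from -0.22 (without Vehicle 2) to 0.01 (without PGE2 1) and was below 0 in 5 of 6 cases. The 13 untested genes were mostly products of mature fibres, such as Ckm, Mb, Myoz1 and Smpx, the last 3 of which were listed at 0 in all libraries. Xirp1, an actin-binding repeat protein of muscle attachments, read 3.20, 6.32 and 6.87 TPM with Vehicle and 1.01, 1.43 and 0.76 TPM with PGE2, all of the latter below all of the former. Its log2 change was -1.60 (95% confidence interval -2.82 to -0.39, limma Benjamini-Hochberg adjusted p = 1.00). Xirp1 was the 1 of 11 with an unadjusted p under 0.05, against 2.06% of all tested genes in that direction. Jun, an AP-1 factor gene, was the other of the 2 of 11 with every PGE2 library lower, beside 4.84% of all tested genes. It read 79.8, 85.2 and 82.5 TPM with Vehicle and 66.9, 65.1 and 38.6 TPM with PGE2, a log2 change of -0.57 (-1.28 to 0.14), and -0.32 without PGE2 3. Meg3, an imprinted noncoding RNA, was low and higher in every PGE2 library (1 of 11, beside 3.18% of all tested genes). It read 0.51, 0.20 and 0.11 TPM with Vehicle and 1.04, 1.95 and 1.25 TPM with PGE2. Meg3 thus passed the filter only through the group in which it was high, so its direction lends no support to a change. Des, which encodes the intermediate filament desmin, read 72.0, 107 and 86.6 TPM with Vehicle and 34.9, 66.7 and 90.8 TPM with PGE2, with PGE2 3 inside the Vehicle range.

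**Figure D5:**
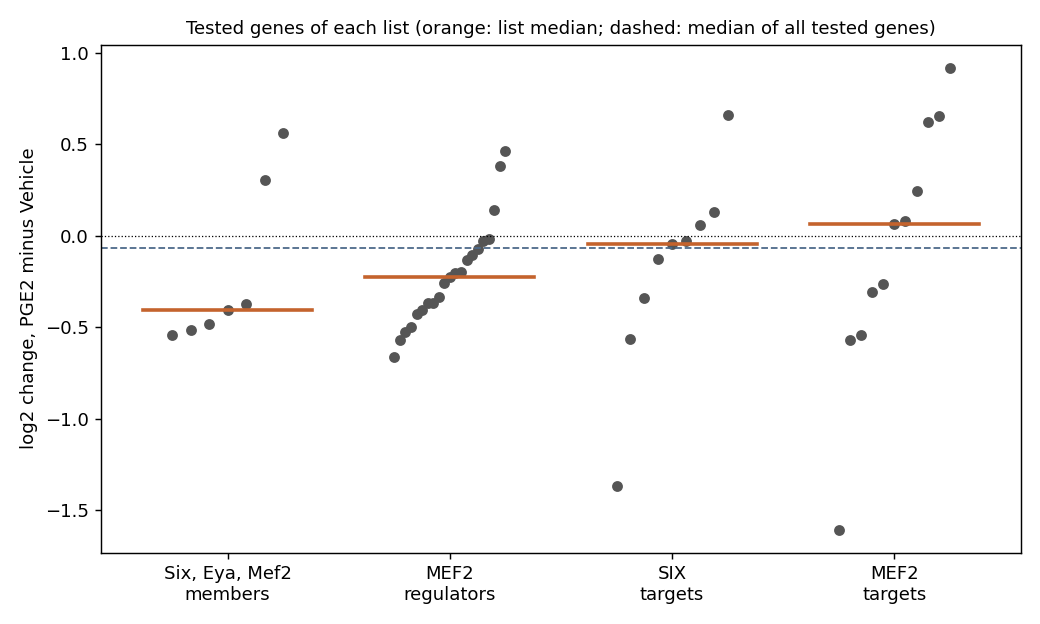
Log2 change of each tested gene (points; vertical axis, PGE2 minus Vehicle) in the members and in the 3 lists of related genes, with the list median in orange and the median of all tested genes (-0.07) dashed. The members' median is -0.41. The lowest points are Xirp1 (-1.60) among MEF2 targets and Pax3 (-1.36) among SIX-family targets. The highest is Meg3 (0.92), a MEF2 target that passed the filter only through its PGE2 libraries.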

How the data were processed

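The 6 libraries, 3 per group, come from 1 table of TPM values that the authors deposited, 1 column for each. The unit is not named in it and was inferred from 2-decimal values that sum to between 992357 and 995645. STAR, RSEM and mm10 are named in the submitters' processing notes; for their versions and the gene models, nothing was given in the sources used here. Per the labels' protocols, cDNA was amplified before library construction, which can widen the spread of low genes. TPM keeps no depth, so no depth or counting interval is given.

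The 12781 genes reaching 1 TPM in 3 or more libraries were fitted with limma 3.58.1 in R 4.3.3 on log2(TPM + 1), which understates changes of low genes, with a mean trend in the variance prior. Tests were two-sided, with Benjamini-Hochberg adjustment over all genes and a threshold of 0.05. The fit was tested on simulated data. Positions and overlaps come from GENCODE M21 (mm10), promoter windows from RefSeq. Tables and figures used Python 3.11.15.

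The members and lists were chosen with earlier results of these data known. Named are the 8 members, family and partner genes, up to 4 tested genes with the smallest p per list, the 2 nearest profiles of each member averaging at least 5 TPM, and genes whose exons overlap a member's. Hdac9, Dach1, Dach2, Carm1, Ep300, Mapk14, Ckm, Mb, Myoz1, Smpx, Myog and Myf6 were added after their values were seen. So were the single markers given beside Mef2c and beside the myogenic sum. A further related gene, and the counts and shares that need it, are not reported here.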

Additional observations from a re-analysis of the deposited data

How the results depend on the processing

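In the 17 alternatives each library was left out in turn, or the low-value filter, pseudocount, scaling, prior or weighting was replaced, or a replicate block was added. None called a member or a gene of the 3 lists. Over all tested genes the count called, 0 by limma as reported (464 at an unadjusted p under 0.05), became 4 with no mean trend in the prior and 1 with a robust prior, and ran from 0 to 2 with 1 library left out. Six4, Eya1, Eya3, Eya4, Mef2a and Mef2d kept their sign throughout, with log2 changes from -0.76 to -0.32, -0.79 to -0.21, -0.75 to -0.21, -0.84 to -0.18, -0.57 to -0.19 and 0.44 to 0.76. With 1 library left out, Mef2c ran from -0.60 (without PGE2 2) to 1.17, Six2 from -2.08e-05 (without Vehicle 3) to 0.71 and Camk2d from -1.05 to 0.041 (without PGE2 2), and a pseudocount of 0.1 also turned Mef2c, to -0.36. The cause was not tested. Xirp1 had an unadjusted limma p under 0.05 in 14 of 16 alternatives, not without Vehicle 2 or Vehicle 3. The adjusted p of Xirp1 was at least 0.584. Pax3 had an unadjusted limma p under 0.05 in 6 of 16 alternatives, with an adjusted p of at least 0.655. Jun, Meg3, Myf5 and Sobp had such an unadjusted p in 1 alternative each. Under the 5 TPM filter Xirp1, Pax3, Meg3, Sobp, Eya4 and Mef2c were not tested. With 1 library left out, the mean Mef2a share ran from 79.4% to 81.1% in Vehicle and from 65.3% to 67.0% in PGE2. The median log2 change over all tested genes was -0.07 as reported and -0.17 without PGE2 1. Deviations of libraries with the same replicate number correlated at -0.06, -0.04 and 0.07, and only number 3 correlated best with its own number. The mitochondrial share rose with replicate number in both groups (20.9%, 28.3% and 33.6% in Vehicle, 23.0%, 25.5% and 30.4% in PGE2). Correlations over all tested genes, many of them low, cannot settle whether libraries of the same number belong together. The replicate block called 0 genes, 0 members and 0 listed genes. Unknown depth limits what can be said of Six5 and of zeros in Mef2c.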
